A study of Homo sapiens with 24 samples.

Results

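ESRRA and PDK4 are a regulator and one of its known target genes, and both are followed here by 1 transcript each. They were chosen by transcript ID, ENST00000000442 for ESRRA and ENST00000005178 for PDK4, and are 2 of the 11396 transcripts listed in the deposited tables. Both transcripts are present in both tables. All libraries come from MDA-MB-231, a human breast cancer cell line, and ribosome footprints and RNA were sequenced in 3 replicates of each of 4 groups, which gives 24 libraries. LM2 cells, labelled highly metastatic to lungs, were compared with the parental line, labelled poorly metastatic and carrying no named guide. Cells with a guide against HNRNPC (sgHNRNPC, labelled HNRNPC knockdown) were compared with cells carrying a control guide (sgCTRL, labelled control), and both are labelled poorly metastatic. All were grown in the same high-glucose medium with serum, with no treatment named, and the labels name no clone for any group. The tables give transcript IDs without gene names, so that the level of HNRNPC itself, the markers of the cell line and other genes of the pathway were not analysed here.

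ESRRA encodes ERRα, an orphan nuclear receptor that, with coactivators of the PGC-1 family, drives genes of mitochondrial respiration and fatty acid oxidation. It binds DNA at estrogen-related receptor elements, and it is a known activator of PDK4. PDK4 is a mitochondrial kinase that phosphorylates and inhibits the pyruvate dehydrogenase complex, which holds back the entry of pyruvate into the citric acid cycle. Its transcription is known to rise on fasting and in response to glucocorticoids, PPAR receptors and FOXO factors.

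In the GRCh38.p14 annotation of RefSeq, ESRRA lies at chr11:64305524-64316743 and PDK4 at chr7:95583499-95596516. The last 284 bases of ESRRA overlap the neighbouring protein-coding gene TRMT112, and 2 pseudogenes of ESRRA (ESRRAP1 and ESRRAP2) lie on chromosome 13. How reads shared by such loci were counted is not given in the sources used here, so the ESRRA values carry that uncertainty. No listed gene overlaps PDK4, but the antisense gene PDK4-AS1 starts at position 95596679, inside the stretch printed for PDK4. The 250 bases before each start site are shown because the RNA of both genes was lower in LM2 cells. They come from RefSeq at chr11:64305274-64305523 on the + strand for ESRRA and chr7:95596517-95596766 on the - strand for PDK4. Capitals mark matches to the motifs searched on both strands.
ESRRA: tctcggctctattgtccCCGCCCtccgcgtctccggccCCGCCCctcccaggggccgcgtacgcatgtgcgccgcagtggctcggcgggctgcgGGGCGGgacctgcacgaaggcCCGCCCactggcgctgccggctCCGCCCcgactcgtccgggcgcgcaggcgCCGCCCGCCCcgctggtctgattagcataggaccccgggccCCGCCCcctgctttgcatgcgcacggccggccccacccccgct
PDK4: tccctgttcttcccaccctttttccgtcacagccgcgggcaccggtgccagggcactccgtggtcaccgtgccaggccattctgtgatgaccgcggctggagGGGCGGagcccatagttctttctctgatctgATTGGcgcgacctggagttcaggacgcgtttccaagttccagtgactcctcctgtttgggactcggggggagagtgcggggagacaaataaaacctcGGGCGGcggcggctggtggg

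The letters of the estrogen-related receptor element, TNAAGGTCA, are in neither window and in 0.854% of the 35116 promoter windows of this length. Those of a FOXO site, GTAAACA, are also in neither, against 2.98% of all windows. The ESRRA window is 78% G and C, more than 94.3% of all windows, and holds 8 matches to the GC box, GGGCGG, a number reached by 0.584% of windows. A pair of them overlap each other, 84 and 80 bases before the start. The PDK4 window is 62.8% G and C, holds 2 GC boxes, a number reached by 24.3% of windows, and has 1 CCAAT box (CCAAT, here on the other strand as ATTGG) 117 bases before the start. A CCAAT box is in 32.0% of windows. These matches describe letters only, and the motifs were picked with the sequences in view. Sequence outside these windows and other spellings of the motifs were not searched, so sites of these factors may lie elsewhere.

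RNA libraries held 26810212 to 52584688 reads over the 11252 transcripts of the LM2 table and 23344230 to 28334050 over the 10767 of the knockdown table, as recovered from the step of the deposited values. Footprint values summed to 1023095 to 1134509 and to 669584 to 753066 per library, and the number of footprint reads behind them is unknown. Values are the authors' normalized values per transcript, on 1 scale per table. The labels give no culture, day or batch for the replicates, so a p-value here covers only the differences among these libraries, which may be technical. Because the libraries are bulk, a change in every cell and a change in some of the cells cannot be told apart.

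ESRRA RNA was lower in LM2 cells than in parental cells, and so were its ribosome footprints. Its RNA values were 1069.8, 970.2 and 1001.6 in the LM2 libraries and 1777, 1745 and 1617 in the parental libraries. Every LM2 library lay below every parental library. How many other transcripts have groups that keep apart was not counted, for this comparison or those below. The means were 1014 ± 50.9 and 1713 ± 84.7 (SD, n = 3), a 1.69-fold difference, from 907 to 1687 reads per library. On the scale of log2(value + 1) the change was -0.76 ± 0.071 (SE, 95% interval -0.90 to -0.61, limma adjusted p = 1.23e-08). Of the 9342 transcripts tested in this table, 53.7% passed the same test in either direction, so that passing it does not set ESRRA apart. By size, 306 of them had a lower change than ESRRA, and the median change was -0.026.

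ESRRA footprints, the fragments of its mRNA covered by ribosomes, had values of 55.6, 52.7 and 44.1 in LM2 cells and 77.2, 75.3 and 68.6 in parental cells. The groups did not overlap here either. The means were 50.8 ± 5.99 and 73.7 ± 4.49 (SD, n = 3), and the log2 change was -0.53 ± 0.15 (SE, 95% interval -0.83 to -0.23, limma adjusted p = 0.00732), where 23.8% of transcripts passed. Without LM2 replicate 3, which had the lowest ESRRA footprint value, the change was -0.44 and the adjusted p was 0.0654 (limma).

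Footprints per RNA, the translation efficiency of a transcript, did not pass the test for ESRRA in LM2 cells. The ratios of the same-numbered libraries were 5.20, 5.43 and 4.40 footprints per 100 RNA in LM2 cells and 4.34, 4.31 and 4.24 in parental cells. All 3 LM2 ratios were the higher ones, but the lowest of them lay close to the parental libraries. The log2 change was 0.22 ± 0.15 (SE, limma adjusted p = 0.56), with a 95% interval of -0.095 to 0.54, and 1.63% of transcripts passed. The interval allows an efficiency from 0.937 to 1.45 times the parental one.

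PDK4, the kinase gene, had less RNA in LM2 cells by a larger factor than ESRRA. Its RNA values were 44.7, 52.4 and 54.4 in the LM2 libraries and 130.1, 122.5 and 137.1 in the parental libraries. The groups were far apart, with the highest LM2 library well below the lowest parental one. The means were 50.5 ± 5.11 and 129.9 ± 7.29 (SD, n = 3), a 2.57-fold difference, and rested on 43 to 88 reads per LM2 library and 102 to 143 per parental library. The spread between replicates was no wider than counting such numbers of reads would give (a coefficient of variation of 10.1% against 13.5% in LM2 cells, and 5.61% against 9.22% in parental cells).

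PDK4 had too few footprints in this table for the filter that the tests used, a mean of at least 10 in RNA and in footprints, since its mean footprint value was 4.15. It has no test among the 9342 transcripts and was tested only in the fit over all 11252 listed transcripts. There its RNA change was -1.35 ± 0.24 (SE, 95% interval -1.84 to -0.85, limma adjusted p = 5.69e-05), where 51.6% of transcripts passed. A lower change was found for 150 of the listed transcripts. The 95% intervals of the PDK4 and ESRRA changes come close to each other (upper end -0.85 for PDK4, lower end -0.90 for ESRRA) and overlap slightly, and the difference between the genes was not tested.

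PDK4 footprints were few in both groups of this table. The values were 3.63, 3.03 and 2.14 in LM2 cells and 8.47, 4.44 and 3.22 in parental cells. The lowest parental library lay within the LM2 range, so the groups overlapped. In the fit over all listed transcripts the change was -0.63 ± 0.51 (SE, 95% interval -1.67 to 0.40, limma adjusted p = 0.417), where 20.9% of transcripts passed. At values this low a change of the size of the RNA change lies inside the interval, and so does no change.

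The ratio of PDK4 footprints to RNA was 8.10, 5.78 and 3.93 per 100 RNA in LM2 cells and 6.51, 3.63 and 2.35 in parental cells. The libraries of both groups were interleaved. The log2 change of 0.72 ± 0.50 (SE, 95% interval -0.33 to 1.76) did not pass the test (limma over all listed transcripts, adjusted p = 0.594), where 1.14% of transcripts passed. The interval covers ratios from 0.797 to 3.39 times the parental one, so that PDK4 efficiency in LM2 cells is poorly determined by these data. The value moves with the pseudocount, from 0.66 at 0.5 to 0.92 at 5.

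**Figure D1:**
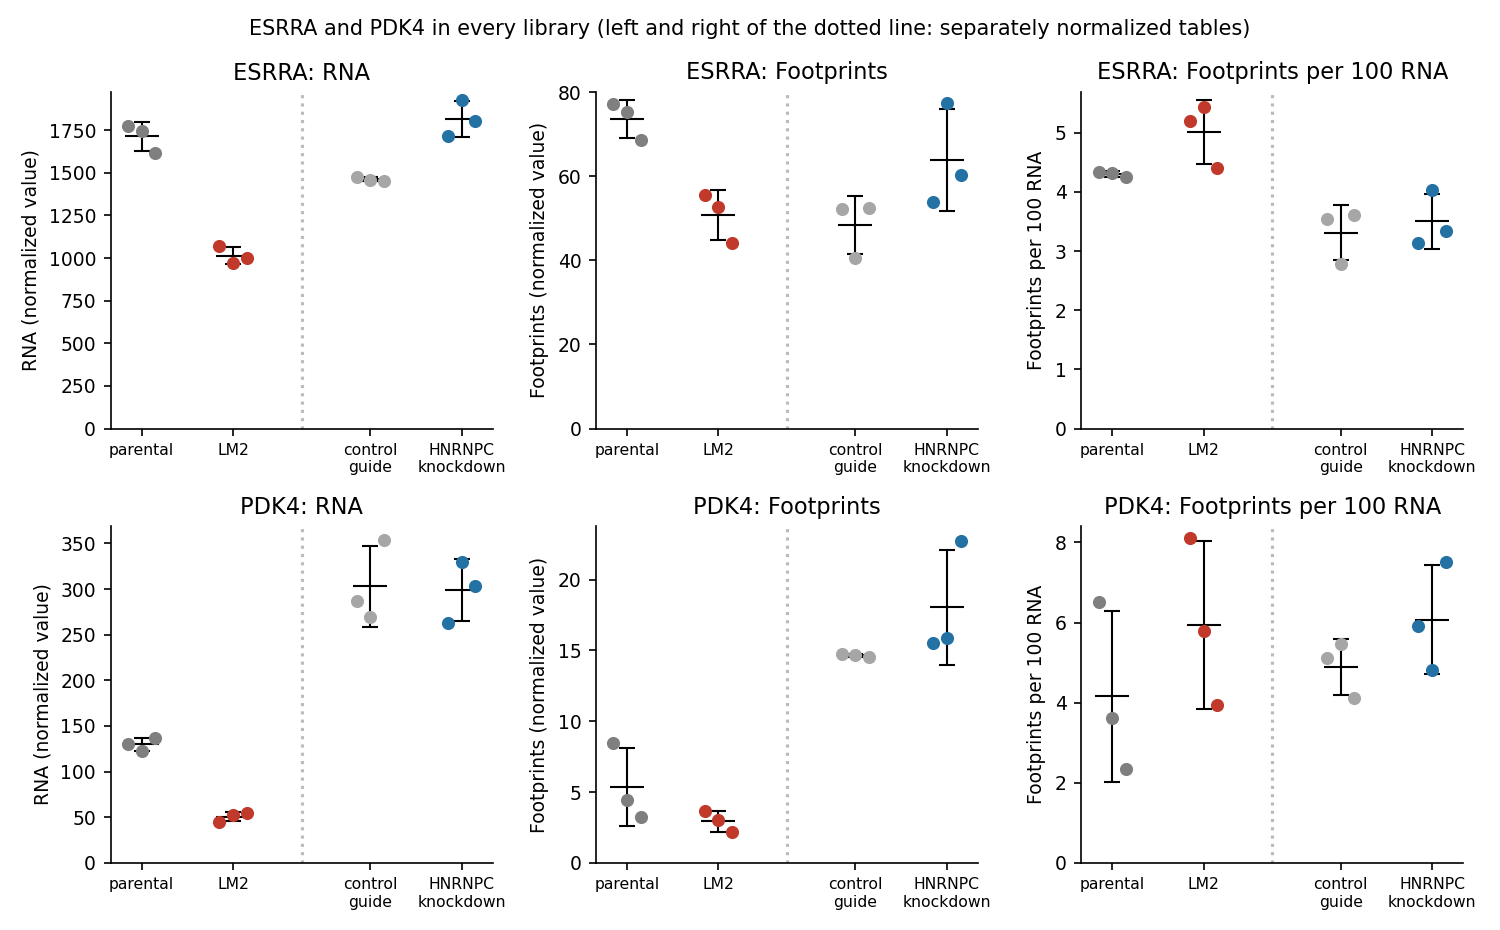
Normalized RNA values, normalized footprint values and footprints per 100 RNA of ESRRA (top) and PDK4 (bottom) in each library, as points, with the mean and SD of 3 replicates in black and all axes starting at 0. ESRRA RNA lies between 970.2 and 1069.8 in LM2 cells, below all parental libraries, and PDK4 RNA between 44.7 and 54.4, while PDK4 footprints overlap. The dotted line parts tables that were normalized separately.

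In the HNRNPC knockdown, ESRRA RNA was higher and PDK4 RNA did not pass the test. HNRNPC is an RNA-binding protein of the nucleus that coats pre-mRNA and takes part in its processing. ESRRA RNA values were 1718, 1926 and 1805 in knockdown cells and 1477, 1456 and 1453 in control guide cells. Every knockdown library was above every control guide library, and the share of all transcripts with such a separation was not counted. The means were 1816 ± 104 and 1462 ± 12.7 (SD, n = 3), a ratio of 1.24, and the log2 change was 0.31 ± 0.062 (SE, 95% interval 0.18 to 0.44, limma adjusted p = 7.95e-05). Of the 8283 transcripts tested here, 73.5% passed, and 1569 had a higher change than ESRRA. With the spread taken from all 12 libraries of the table, the adjusted p was 0.0541 (limma).

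The scale of this table bears on the size of that rise. The median RNA change of all tested transcripts was -0.10 (log2) in the deposited values, and with that median set to 0 the ESRRA change was 0.42. With libraries scaled to the same total it was 0.46. The RNA calls were 2323 higher and 3761 lower as deposited and 3355 higher and 2759 lower after that scaling. In the LM2 table the split was 2142 higher and 2875 lower as deposited and 2829 and 2259 after it, with an ESRRA change of -0.70.

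ESRRA footprints had values of 53.8, 77.5 and 60.4 in knockdown cells and 52.3, 40.5 and 52.5 in control guide cells. The lowest knockdown library lay just above the highest control guide library. The means were 63.9 ± 12.2 and 48.4 ± 6.88 (SD, n = 3), and the log2 change of 0.39 ± 0.16 (SE, 95% interval 0.057 to 0.72) missed the threshold (limma adjusted p = 0.0607), where 36.2% of transcripts passed. It passed in 6 of 18 alternatives, among them the median change set to 0 (limma adjusted p = 0.04) and libraries scaled to the same total (0.0265).

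Footprints per RNA of ESRRA were 3.13, 4.02 and 3.35 per 100 RNA in knockdown cells and 3.54, 2.78 and 3.61 in control guide cells. The libraries of both groups were mixed. The log2 change was 0.075 ± 0.18 (SE, 95% interval -0.31 to 0.46, limma adjusted p = 0.858), where 5.46% of transcripts passed, and its sign turned under several scalings. The interval allows ratios from 0.807 to 1.37 times that of the control guide cells.

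PDK4 RNA values were 262.6, 330.2 and 303.1 in knockdown cells and 287.5, 268.9 and 353.4 in control guide cells. The groups overlapped over most of their range. The means were 298.6 ± 34.0 and 303.3 ± 44.4 (SD, n = 3), and the log2 change was -0.019 ± 0.14 (SE, 95% interval -0.30 to 0.26, limma adjusted p = 0.907). That interval allows PDK4 RNA at 0.812 to 1.20 times the control guide level, which does not reach the 2.57-fold difference seen in LM2 cells. With libraries scaled to the same total the change was 0.13, and other scalings also turned its sign. The spread between replicates, 14.7% with the control guide and 11.4% in the knockdown as coefficients of variation, was wider than the 5.80% and 5.57% that counting 276 to 371 reads gives.

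PDK4 footprints were 15.5, 15.9 and 22.7 in knockdown cells and 14.7, 14.7 and 14.6 in control guide cells. All knockdown libraries were above the control guide libraries, but 2 of the 3 only by about 1 unit, and replicate 3 made most of the difference in means (18.0 ± 4.08 against 14.7 ± 0.0906, SD, n = 3). The log2 change was 0.26 ± 0.29 (SE, 95% interval -0.33 to 0.85, limma adjusted p = 0.511). The footprints per 100 RNA were 5.90, 4.81 and 7.51 against 5.12, 5.46 and 4.12, which overlap, with a log2 change of 0.28 ± 0.28 (SE, 95% interval -0.31 to 0.87, limma adjusted p = 0.607). Without knockdown replicate 3 the footprint change was 0.092 and that of footprints per RNA 0.12, and the latter was 0.43 without knockdown replicate 2 and 0.16 without control guide replicate 3.

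**Figure D2:**
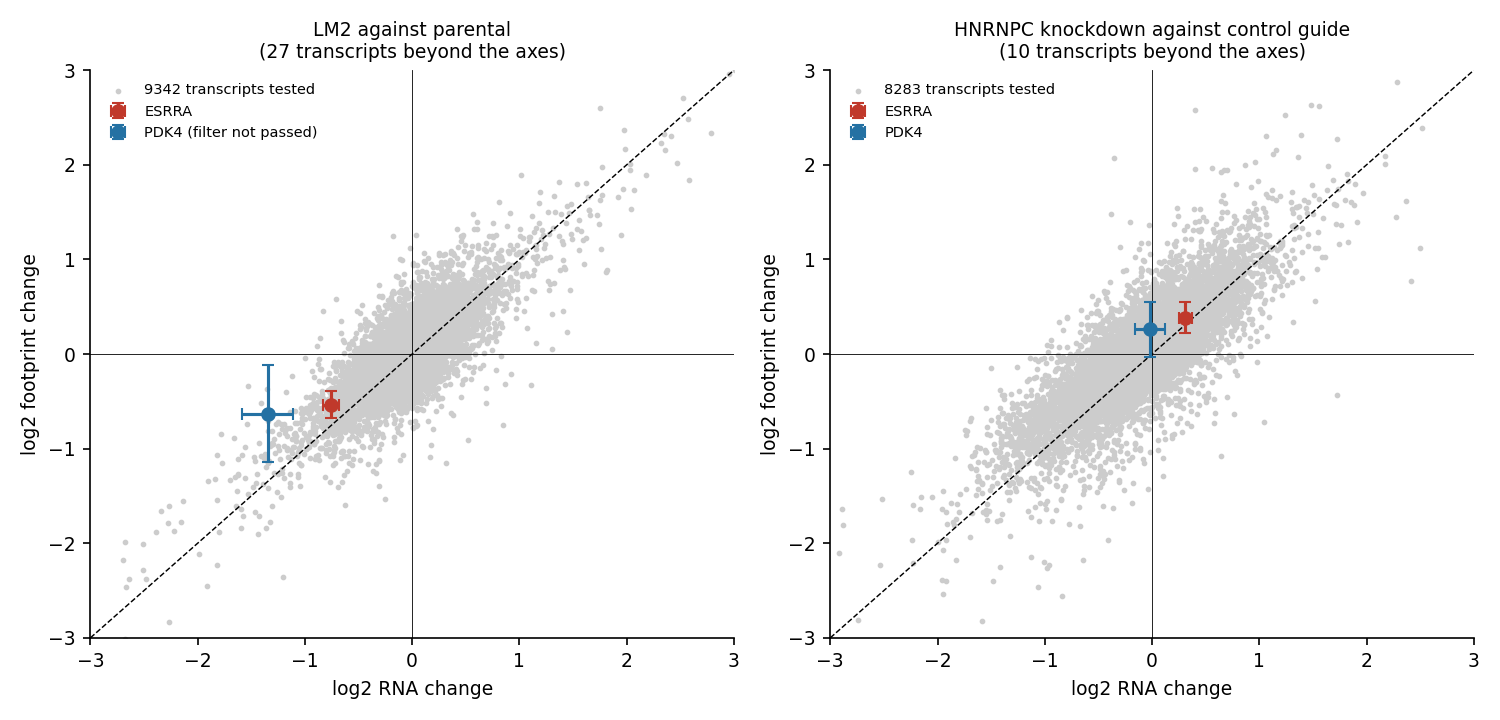
Log2 footprint change against log2 RNA change of each tested transcript (grey), with ESRRA (red) and PDK4 (blue) and their SE, for LM2 against parental cells (left) and HNRNPC knockdown against control guide cells (right); on the dashed line both changes are equal. ESRRA lies at -0.76 and -0.53 on the left and at 0.31 and 0.39 on the right, while PDK4 lies at -1.35 and -0.63 on the left, from the fit with no filter, and near 0 for RNA on the right.

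ESRRA RNA was thus lower in LM2 cells and higher in HNRNPC knockdown cells, each against its own reference, and no library is shared by these comparisons. Of the 8171 transcripts tested in both tables, 755 (9.24%) passed the RNA test in that same pair of directions. PDK4 RNA passed a test in LM2 cells only, in the fit with no filter, and whether its changes differ between the experiments was not tested. In neither comparison did the footprints per RNA of either gene pass the test.

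**Figure D3:**
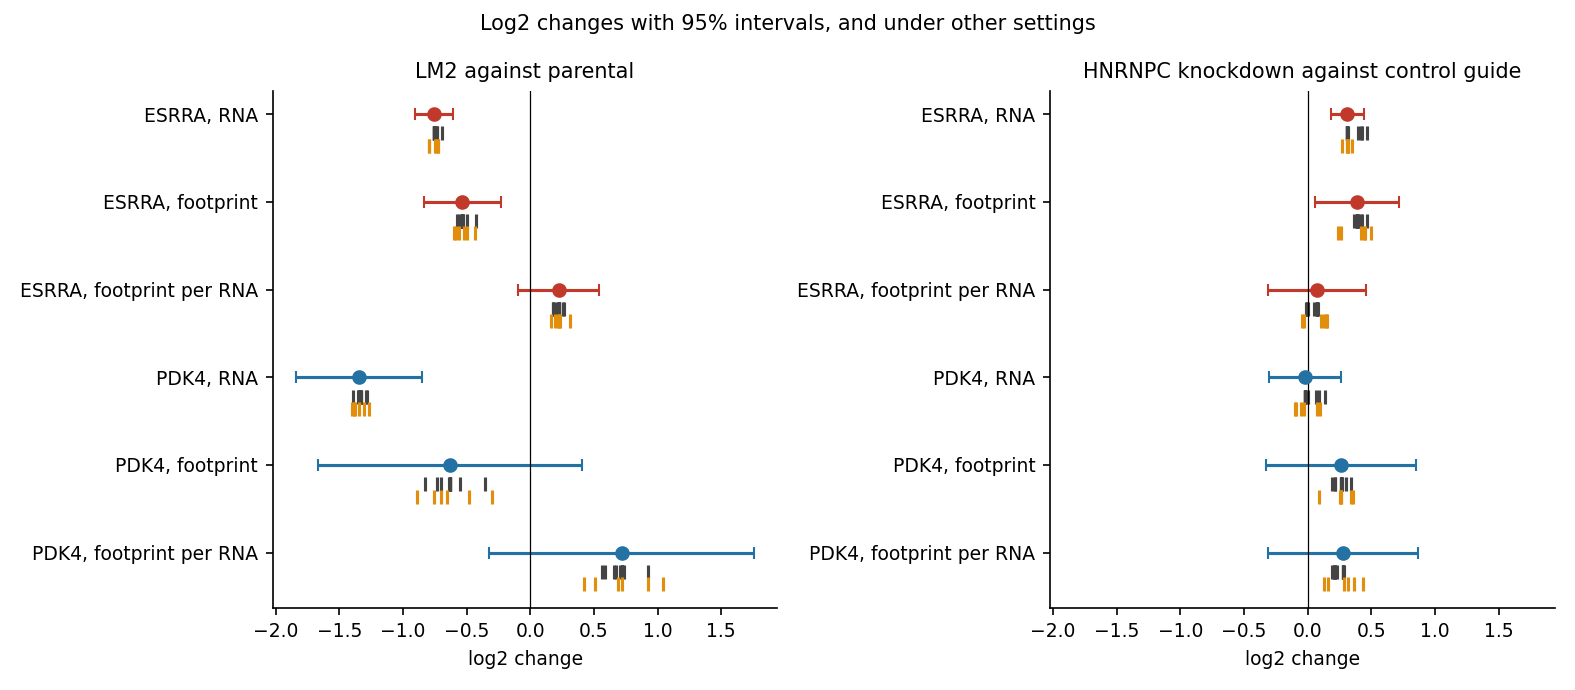
Log2 changes of RNA, footprints and footprints per RNA of ESRRA (red) and PDK4 (blue), with 95% intervals as bars, for both comparisons. Dark ticks under each are other scalings, filters, pseudocounts and models, and orange ticks leave out 1 replicate; PDK4 in LM2 cells is from the fit with no filter. The ticks of ESRRA RNA stay between -0.80 and -0.70 on the left and between 0.27 and 0.46 on the right, and those of PDK4 RNA on the right fall on both sides of 0.

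The levels of both genes can be set in order over all 4 groups as RNA reads per 1000000 reads over the transcripts listed in each table (reads per M), although the tables list somewhat different transcripts and were normalized separately. ESRRA was lowest in LM2 cells (31.1 ± 1.72), followed by the parental line (50.4 ± 2.29), the control guide (55.5 ± 0.365) and the HNRNPC knockdown (76.6 ± 4.04, SD, n = 3). No neighbouring groups in this order overlapped, and the step from parental to control guide cells was the smallest. PDK4 had 1.55 ± 0.153, 3.82 ± 0.221, 11.5 ± 1.66 and 12.6 ± 1.38 in the same order. Only its last 2 groups overlapped. How many other transcripts have groups that keep apart in this way was not counted, so the order describes these 2 genes only.

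PDK4 RNA also stood apart between the reference groups, which are both labelled poorly metastatic. Over the 10623 transcripts listed in both tables, control guide cells had 11.5 PDK4 reads per M and parental cells 3.84, a ratio of 3.0. That ratio was higher than those of 98.8% of shared transcripts, whose median was 1.03. ESRRA had 55.5 and 50.6 reads per M, a ratio of 1.10, higher than 59.5% of them. The comparison runs across tables and has no test, and the experiment and the guide cannot be told apart in it.

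Within its own table ESRRA was a transcript of middling level and PDK4 a low one. Mean ESRRA RNA was above that of 46.2% of listed transcripts in LM2 cells and 60.9% in the parental line, and above 61.3% with the control guide and 69.9% in the knockdown. PDK4 RNA was above 2.15% and 8.17% in the LM2 table and above 19.5% and 19.1% in the knockdown table. The footprints per RNA of PDK4 were higher in rank, above those of 68.7% of transcripts in LM2 cells and 51.4% in the parental line, and above 71.6% with the control guide and 79.5% in the knockdown. For ESRRA these ranks, in the same order, were 60.9%, 53.8%, 52.0% and 51.6%. Footprint and RNA values are not corrected for length here, so the ranks describe the tables only.

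The transcripts most like each gene in RNA were looked for over the 12 RNA libraries, after centring log2 values within each table. For ESRRA the closest of 8170 was ENST00000306749 (Pearson r = 0.98), with RNA means of 9454 ± 155 in LM2, 20640 ± 1256 in parental, 12983 ± 210 in control guide and 18022 ± 187 in knockdown cells (SD, n = 3). For PDK4 the closest of 8171 was ENST00000302763 (r = 0.98), with 16450 ± 618, 22257 ± 283, 18230 ± 1094 and 17793 ± 643. Each r is a description over libraries that share their groups and takes no account of the size of a change. With ESRRA and with PDK4, 237 and 228 transcripts had an r over 0.9. The r between ESRRA and PDK4 was 0.87, higher than 95.7% of the candidates reached with ESRRA and 96.0% with PDK4. It pools both tables and so includes the LM2 comparison, where the RNA of both genes was lower (log2 changes -0.76 and -1.35). In the knockdown their RNA changes were 0.31 and -0.019, and an r within each table was not computed.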

How the data were processed

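The submitters' processing notes name hg38 and, with no role or order, Bowtie2 2.3.5, SAMtools, UMI-tools and cutadapt 2.3. Per the labels' protocols, footprints came from lysates with cycloheximide and RNA was isolated from the lysates. The deposited values are a normalized signal per transcript. Each RNA value was a multiple of its library's smallest step (100% were whole, to within 1e-06), from which reads were recovered as a measure of depth. No reads were recovered from the footprint values. All columns of values were used, and no 2 were identical.

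Values were taken as log2(value + 1), which understates RNA and footprint changes of low values and, since footprints are lower than RNA, can shift a change of footprints per RNA either way. Transcripts with a mean of at least 10 in RNA and in footprints were tested (9342 and 8283) with limma 3.58.1 in R 4.3.3, with a variance trend, and footprints per RNA as the interaction of assay and group over 12 libraries. P-values are two-sided, adjusted by Benjamini-Hochberg over all transcripts tested, with a threshold of 0.05. Tests stayed within a table. Columns headed MDA were taken as the parental libraries. The scripts were tested on simulated data.

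Named were ESRRA, PDK4 and the transcript most like each. The members, lists and tests were chosen with earlier results of these data known. The fixed lists (ERR family and coregulators, pyruvate dehydrogenase regulation, ERR targets, PDK4 regulators, line markers) could not be read, since 0 of the 11396 transcript IDs matched the name tables used here. Alternatives were pseudocounts of 0.5 and 5, no filter, a minimum mean of 50, TMM (own implementation), quantile normalization, centring, replicate and lysate blocks, no variance trend, array weights, the spread of all 12 libraries, leaving out each replicate and, chosen after seeing the data, scaling to the same total.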

Additional observations from a re-analysis of the deposited data

How the results depend on the processing

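Direction and side of the threshold held in all 18 alternatives for ESRRA RNA in LM2 cells and for its footprints per RNA there. Leaving out 1 replicate gave ESRRA footprints in LM2 cells -0.60 to -0.44, with the threshold missed only without LM2 replicate 3. It gave ESRRA footprints in knockdown cells 0.24 to 0.50, PDK4 RNA -0.10 to 0.096 and ESRRA footprints per RNA -0.044 to 0.15. In knockdown cells ESRRA RNA stayed at 0.31 with the spread of all 12 libraries but missed the threshold, since that spread holds the footprint libraries. ESRRA footprints there passed after quantile normalization (0.42), with the median change set to 0 (0.42), with array weights (0.40), with the spread of all 12 libraries (0.39), with libraries scaled to the same total (0.47) and without HNRNPC knockdown replicate 1 (0.50, limma adjusted p = 0.036). PDK4 RNA turned to 0.065 after TMM, 0.086 with the median at 0, 0.0026 with array weights and 0.13 at the same total, and ESRRA footprints per RNA to -0.0022 after TMM, -0.0070 after quantile normalization and -0.013 with the median at 0. Results whose sign turned did not pass the test as reported or under these settings. PDK4 in LM2 cells kept its directions, with RNA from -1.40 to -1.26, footprints from -0.89 to -0.30 and footprints per RNA from 0.42 to 1.04.

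Same-numbered libraries did not deviate together (r from -0.20 to 0.035 over 12 pairs of cell groups, and from -0.0061 to 0.13 between footprints and RNA), so the numbers do not pair them. A replicate block left the calls of ESRRA in both tables and of PDK4 in the knockdown table as they were (PDK4 in LM2 cells, tested only with no filter, has no blocked test), with ESRRA RNA at -0.76 and 0.31 (limma adjusted p = 1.01e-06 and 0.000246) and its knockdown footprints at 0.39 (0.0572). It moved the calls of footprints per RNA over all transcripts from 152 to 43 in LM2 cells and from 452 to 183 in knockdown cells. Those counts ran from 18 (no variance trend) to 311 (array weights) and from 178 (without HNRNPC knockdown replicate 2) to 629 (pseudocount 5). RNA calls ran from 2701 to 5810 against 5017 and from 3101 to 7548 against 6084, and footprint calls from 1173 to 3434 against 2223 and from 1844 to 4094 against 2998. Scaling to the same total turned the split of footprint calls from 864 higher and 1359 lower to 1498 and 876 in LM2 cells and from 1286 and 1712 to 1616 and 1354 in knockdown cells, and that of footprints per RNA in knockdown cells from 308 and 144 to 172 and 226. In LM2 cells the latter moved from 44 and 108 to 65 and 93. With a minimum mean of 50 PDK4 had no value in either table.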
